A study of Rattus norvegicus with 6 samples.

Results

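The genes examined here encode 10 acute phase plasma proteins that liver cells secrete: Crp, Hp, Orm1, A2m, Mug1, Hpx, Cp, Serpina3n, Hamp and Itih4. They were found on the Affymetrix RG230 2.0 array as every probe set whose only gene symbol was 1 of these names, which gave 12 probe sets of 31042 tested, 3 of them for Cp and 1 for each other gene. The samples were livers of congenic BioBreeding rats, 6 arrays in 3 groups of 2. The lyp mutation is a frameshift in Gimap5 that causes lymphopenia, and rats homozygous for it on the BBDR background go on to autoimmune diabetes. BBDR.+/+ rats, which carry no lyp allele, were 55 days old, BBDR.lyp/lyp pre-hyperglycemia rats were 50 days old, and BBDR.lyp/lyp post-hyperglycemia rats were 55 days old, taken shortly after hyperglycemia began. The ages are given with a range of 5 days to either side, so that age cannot be told apart from onset between both lyp/lyp groups, nor from genotype between pre-hyperglycemia and BBDR.+/+ rats. The labels give a fast of 12 h before the liver was taken, whereas the methods describe free access to food. The labels number the arrays of a group without saying that they came from separate animals, so that each p-value measures only the spread between these arrays. The methods describe liver excised at several ages, before and after onset. Whether the pre- and post-hyperglycemia arrays came from the same rats, or followed an earlier excision, is not stated.

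In the acute phase response, inflammatory signals reach the hepatocyte and change the set of proteins it secretes into plasma. Interleukin-6 acts through the gp130 receptor and STAT3, and interleukin-1 and tumor necrosis factor act through NF-kB, with C/EBP factors and glucocorticoids acting beside them. Positive acute phase proteins rise and negative ones, such as albumin, fall. Species differ in which proteins respond: alpha-2-macroglobulin is a major acute phase protein in the rat and is scarce in healthy adults, whereas C-reactive protein circulates in healthy rats at a substantial level and responds little.

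Array signals are given as log2 values and differences between groups as log2 differences. Each difference came from limma fitted to all 6 arrays and all 31042 probe sets, with Benjamini-Hochberg adjustment over all of them, and a probe set was called at an adjusted p under 0.05. Signs follow the deposited labels, as post-hyperglycemia minus the other group, and in the study's own tables genes such as Cd36 and Gclc carry the opposite sign. Whether those tables are written in the other order or labels were exchanged could not be told. Every direction below rests on the deposited labels. The liver identity of the arrays was clear, since 8 hepatocyte markers averaged 13.45 to 13.58 on every array. Of the 8, only Tat was called, lower in post-hyperglycemia than in BBDR.+/+ liver (-0.88, limma adjusted p = 0.0115). In bulk liver, fewer cells of a type and less RNA per cell cannot be told apart. The 3' minus 5' signal of control transcripts, a sign of RNA length, was larger in the post-hyperglycemia arrays (2.04 and 2.11 for beta-actin) than in the other 4 (1.12 to 1.51), and its part in the results below was not tested beyond the fits given beside them.

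The 10 genes did not move together. Of the 12 probe sets, 2 were called in post-hyperglycemia against BBDR.+/+ liver, both lower (Mug1 and Crp), where the fit called 5.15% of all probe sets, 1.89% higher and 3.26% lower. Without adjustment, 4 had a p under 0.05. Against pre-hyperglycemia liver, 2 were called, again both lower (Mug1 and A2m), with 2.18% of all probe sets called, 0.718% higher and 1.46% lower, and 3 of the 12 had a p under 0.05 before adjustment. Between pre-hyperglycemia and BBDR.+/+ liver, 1 was called, higher (A2m), with 0.718% of all called, 0.464% higher and 0.254% lower, and 4 of the 12 had a p under 0.05 before adjustment. The median log2 difference of the 12 was 0.09, 0.03 and 0.06 in these comparisons, beside 0.01, 0.01 and -0.00 over all probe sets. The comparisons share arrays, so the same 2 arrays of a group enter both of its differences.

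**Figure D1:**
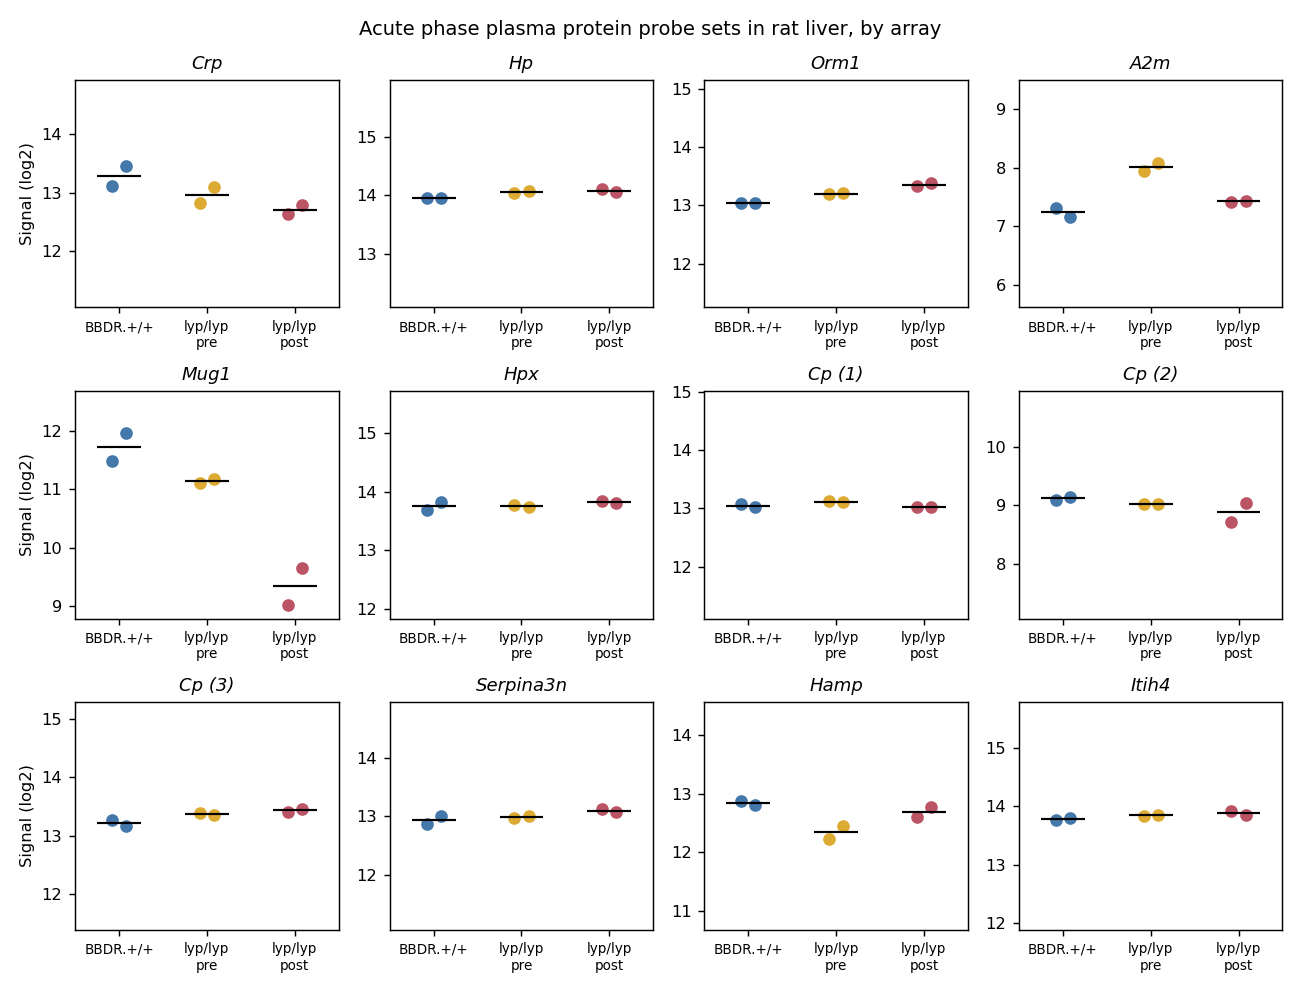
Log2 array signal (y axis, a window of equal height in every panel) of the 12 probe sets in the BBDR.+/+, BBDR.lyp/lyp pre-hyperglycemia and post-hyperglycemia arrays. Points are single arrays and bars are group means of 2. Mug1 fell to 9.02 and 9.66 in the post-hyperglycemia arrays, A2m was high in the pre-hyperglycemia arrays, and most other panels are nearly flat.

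**Figure D2:**
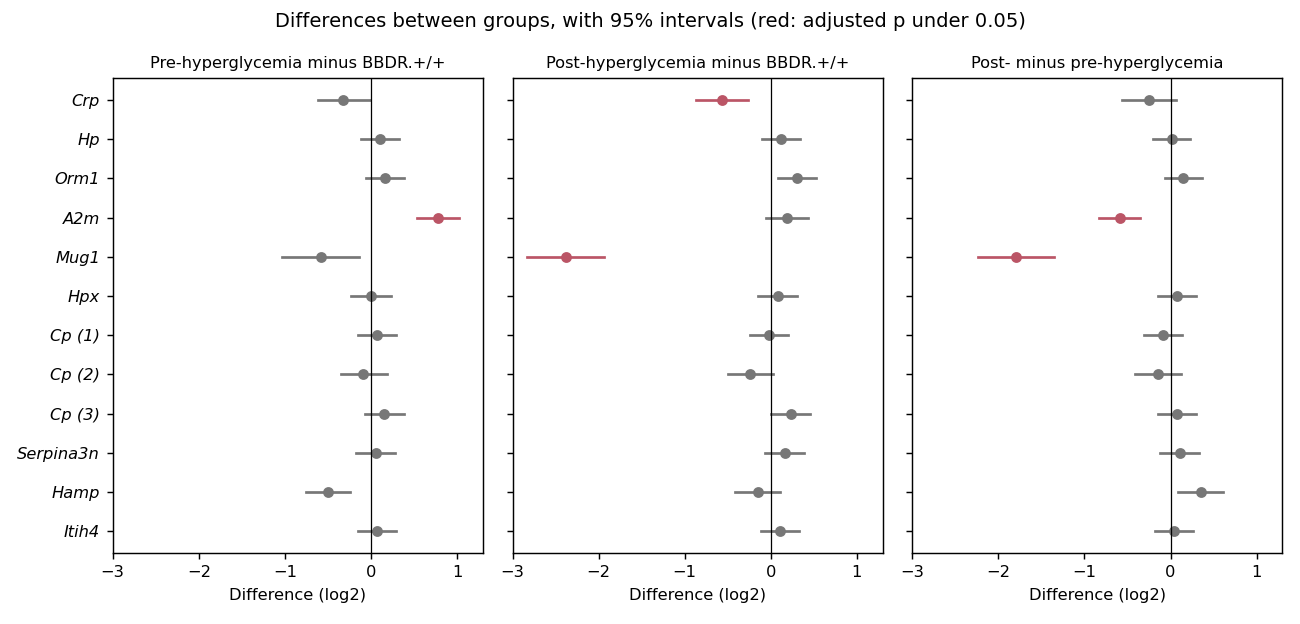
Log2 differences between groups (x axis) with 95% intervals from limma for the same 12 probe sets, with called ones in red. Besides Mug1, A2m and Crp, no probe set was called, and the other 9 lay between -0.50 and 0.35.

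Among the protease inhibitors, the largest difference was that of Mug1. Mug1 encodes murinoglobulin 1, a single-chain rodent macroglobulin that traps proteases in plasma and is known in the rat as a negative acute phase protein. Its signal was 11.48 and 11.97 in BBDR.+/+, 11.11 and 11.17 in pre-hyperglycemia and 9.02 and 9.66 in post-hyperglycemia arrays. All 3 groups were apart from each other, in that order. Mug1 was 5.21-fold lower in post-hyperglycemia than in BBDR.+/+ liver, a log2 difference of -2.38 (SE 0.20, 95% interval -2.83 to -1.94, limma adjusted p = 0.000369). Against pre-hyperglycemia liver it was 3.48-fold lower (-1.80, SE 0.20, 95% interval -2.24 to -1.35, limma adjusted p = 0.00294). The difference of -0.58 between pre-hyperglycemia and BBDR.+/+ liver was not called by limma (adjusted p = 0.277), but was by the rank product.

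A further probe set, shared by Mug1, Cpamd8 and Mug1l1 and for that reason not counted among the 12, gave another picture. Its signal was 14.09 and 14.13 in BBDR.+/+, 14.02 and 13.97 in pre-hyperglycemia and 14.00 and 13.98 in post-hyperglycemia arrays. The difference between post-hyperglycemia and BBDR.+/+ liver was -0.12 (95% interval -0.34 to 0.10, limma adjusted p = 0.576), and its interval does not reach the -2.38 of the other probe set. The highest signal on the arrays was 14.62, and how far differences are compressed at that end was not tested. The RefSeq order of protein-coding genes on this chromosome is A2m, Mug1l1, Mug1, Mug2 and Cpamd8. Their sequences were not compared and the probe sets were not placed on them, so which murinoglobulin transcripts each probe set reads is uncertain.

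Both Mug1 calls held in all 6 fits that left out 1 array, where the difference ranged from -2.70 to -2.06 against BBDR.+/+ and from -2.12 to -1.48 against pre-hyperglycemia liver. They were lost by the t-test that the methods name, after adjustment. They were also lost when the 3' minus 5' difference of the control transcripts entered the fit as a covariate. The Mug1 differences were then -0.95 and -0.55. That covariate averaged 0.91 in BBDR.+/+, 1.01 in pre-hyperglycemia and 1.71 in post-hyperglycemia arrays, so that it separates the post-hyperglycemia group much as the group term does.

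**Figure D3:**
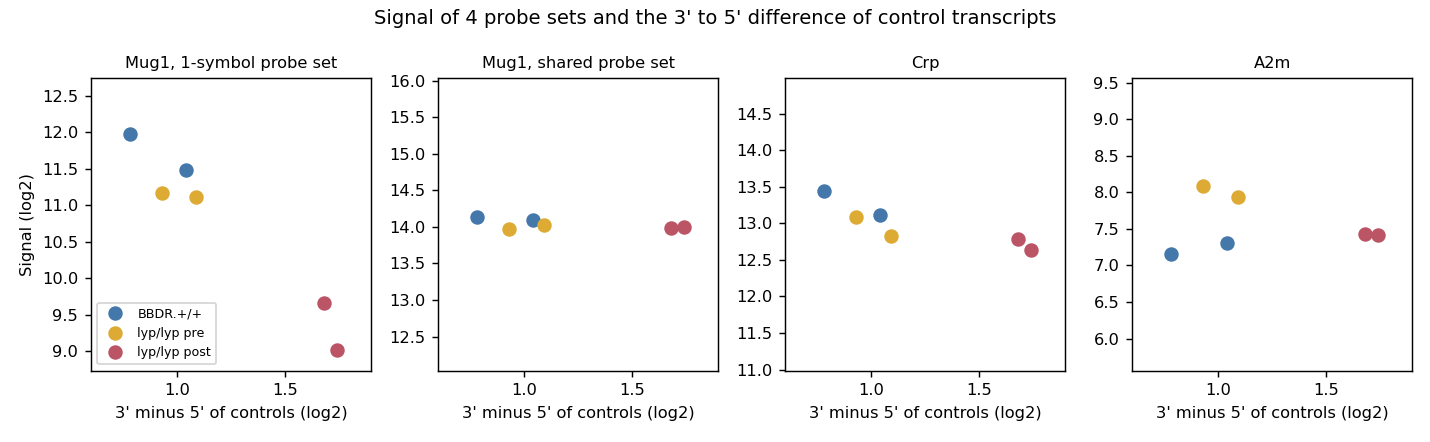
Log2 signal (y axis) of the Mug1 probe set with 1 symbol, the Mug1 probe set shared with other genes, Crp and A2m against the mean 3' minus 5' log2 difference of the beta-actin and GAPDH control probe sets (x axis), with 1 point per array. The post-hyperglycemia arrays lie at 1.68 and 1.74 on the x axis and the other 4 between 0.78 and 1.09.

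A2m, which encodes alpha-2-macroglobulin, was high in pre-hyperglycemia liver alone. Its signal was 7.31 and 7.16 in BBDR.+/+, 7.94 and 8.09 in pre-hyperglycemia and 7.42 and 7.43 in post-hyperglycemia arrays. The pre-hyperglycemia arrays lay above all other 4. A2m was 1.72-fold higher in pre-hyperglycemia than in BBDR.+/+ liver (log2 difference 0.78, SE 0.11, 95% interval 0.54 to 1.02, limma adjusted p = 0.00966), and 1.5-fold lower in post-hyperglycemia than in pre-hyperglycemia liver (-0.59, SE 0.11, 95% interval -0.83 to -0.35, limma adjusted p = 0.021). The remaining difference between post-hyperglycemia and BBDR.+/+ liver was 0.19 (95% interval -0.05 to 0.43, limma adjusted p = 0.373). Both A2m calls were lost by the methods' t-test after adjustment. The difference between pre-hyperglycemia and BBDR.+/+ liver stayed called with the covariate. It lost its call without BBDR.+/+ replicate 1 (0.85), BBDR.+/+ replicate 2 (0.71) or pre-hyperglycemia replicate 2 (0.71), and the difference between both lyp/lyp groups lost its call with the covariate (-0.69), by the rank product and when the fit left out pre-hyperglycemia replicate 2 (-0.52) or either post-hyperglycemia array (-0.58 and -0.59).

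The remaining inhibitors were called in no comparison. Serpina3n, a serine protease inhibitor of the antichymotrypsin family, was at 12.87 and 13.01 in BBDR.+/+, 12.97 and 13.01 in pre-hyperglycemia and 13.12 and 13.08 in post-hyperglycemia arrays. The post-hyperglycemia arrays lay above the other 4, but by a log2 difference of 0.16 to BBDR.+/+ liver that was not called. Itih4, an inter-alpha-trypsin inhibitor heavy chain that liver releases in inflammation, was at 13.76 and 13.80, 13.84 and 13.86, and 13.92 and 13.85 in the same order of groups. Its differences were 0.11, 0.04 and 0.07 for post-hyperglycemia against BBDR.+/+, post- against pre-hyperglycemia and pre-hyperglycemia against BBDR.+/+ liver.

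Crp encodes C-reactive protein, a pentraxin that binds phosphocholine on bacteria and damaged cells. Its signal was 13.11 and 13.45 in BBDR.+/+, 12.83 and 13.09 in pre-hyperglycemia and 12.64 and 12.78 in post-hyperglycemia arrays. It was lower at each step, and no pair of groups overlapped. The difference between post-hyperglycemia and BBDR.+/+ liver was 1.48-fold (log2 difference -0.57, SE 0.14, 95% interval -0.87 to -0.26, limma adjusted p = 0.0426), and the differences of -0.25 and -0.32 for post- against pre-hyperglycemia and pre-hyperglycemia against BBDR.+/+ liver were not called (adjusted p = 0.449 and 0.422). With the 3' minus 5' covariate the difference turned to 0.59, without a call. It also lost its call by the methods' t-test, by the rank product and when the fit left out BBDR.+/+ replicate 2 (-0.39) or either post-hyperglycemia array (-0.49 and -0.64).

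Crp and Mug1, the members that limma called lower in post-hyperglycemia than in BBDR.+/+ liver, with the limits given above, are shown with the 250 bases before their annotated starts. Of the 8 members with a promoter in the RefSeq table (assembly GRCr8), these were the ones that held TGTTCT, a glucocorticoid receptor half-site, on either strand. This pattern was picked from several that were searched. Capitals mark it, and in Mug1 it reads AGAACA on the strand shown. The Crp sequence lies at chr13:87693812-87694061 and that of Mug1 at chr4:156748145-156748394, both on the plus strand.
Crp: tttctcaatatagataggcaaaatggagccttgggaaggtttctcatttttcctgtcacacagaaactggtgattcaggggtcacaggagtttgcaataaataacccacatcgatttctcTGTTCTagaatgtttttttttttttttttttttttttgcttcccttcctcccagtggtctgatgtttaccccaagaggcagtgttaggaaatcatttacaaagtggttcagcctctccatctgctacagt
Mug1: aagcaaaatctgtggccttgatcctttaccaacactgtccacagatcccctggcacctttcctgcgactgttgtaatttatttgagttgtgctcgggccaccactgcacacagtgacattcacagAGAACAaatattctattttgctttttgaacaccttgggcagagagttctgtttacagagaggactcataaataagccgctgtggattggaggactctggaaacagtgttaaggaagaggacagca
The half-site was in 17.5% of 33469 RefSeq promoter windows of the same length, so its presence in 2 of 8 is a description of these letters and not a binding site.

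Hamp encodes hepcidin, the peptide hormone that removes the iron exporter ferroportin from cell surfaces, and it is induced by interleukin-6 through STAT3 and by bone morphogenetic proteins through SMAD factors. Its signal was 12.88 and 12.80 in BBDR.+/+, 12.23 and 12.45 in pre-hyperglycemia and 12.60 and 12.77 in post-hyperglycemia arrays. The pre-hyperglycemia arrays lay below the other 4, the reverse of A2m. The log2 difference was -0.50 to BBDR.+/+ liver (95% interval -0.76 to -0.24, limma adjusted p = 0.100) and 0.35 from pre- to post-hyperglycemia liver (95% interval 0.09 to 0.61, limma adjusted p = 0.177). Neither was called, although both were when limma let the variance follow the signal (adjusted p = 0.00652 and 0.0292). Between post-hyperglycemia and BBDR.+/+ liver the difference was -0.15 (adjusted p = 0.536).

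The Hamp promoter window is shown because among the 8 it alone held GGCGCC, the core of a bone morphogenetic protein response element, and it held the STAT pattern TTCNNNGAA a few bases on. Both are in capitals. The sequence lies at chr1:95300272-95300521 of GRCr8 and is written along the minus strand, on which the gene runs.
Hamp: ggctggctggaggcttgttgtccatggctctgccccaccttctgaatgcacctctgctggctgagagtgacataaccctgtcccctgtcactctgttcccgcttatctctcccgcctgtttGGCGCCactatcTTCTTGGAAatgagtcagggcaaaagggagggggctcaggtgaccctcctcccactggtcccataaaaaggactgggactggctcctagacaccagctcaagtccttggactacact
Each pattern was searched on both strands. GGCGCC was in 8.69% of all windows and TTCNNNGAA in 7.67%. Serpina3n and Itih4 also held TTCNNNGAA, in both overlapping CTGGGAA, the core of the type 2 interleukin-6 response element, which was in 9.56% of windows. The C/EBP pattern TTGCNNAA was in 9.22% of windows, and in those of Orm1, Hpx, Cp and Itih4.

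Genes of iron handling that were listed with Hamp gave 37 probe sets of 17 measured genes. In post-hyperglycemia against BBDR.+/+ liver, 3 were higher, 4 lower and 30 not called. The share called was 18.9%, beside 5.15% of all probe sets. Those lower included Hfe, the hemochromatosis protein that senses transferrin saturation, with 8.68 and 8.79 in BBDR.+/+, 8.69 and 8.80 in pre-hyperglycemia and 8.14 and 8.33 in post-hyperglycemia arrays (log2 difference -0.50, limma adjusted p = 0.0286). Hfe was also the only 1 of the 37 that limma called against pre-hyperglycemia liver (-0.51, adjusted p = 0.0445), a share of 2.7% beside 2.18% of all probe sets. That call of Hfe was lost by the rank product. With 1 array left out the difference ranged from -0.6 to -0.41, without a call. Between pre-hyperglycemia and BBDR.+/+ liver 0 of the 37 were called by limma or the rank product, with 3 at a p under 0.05 before adjustment. Smad1, Smad4 and Bmp2 of the bone morphogenetic protein route were lower through 1 probe set each (-0.80, -0.60 and -0.57), while their other probe sets differed by -0.09, 0.11 and -0.09. With the 3' minus 5' covariate the Smad1 and Smad4 differences turned to 0.84 and 0.50, and that of Bmp2 was -0.21, none of them called. The probe sets that were higher belonged to Cd163, the hemoglobin-haptoglobin receptor of macrophages (0.73), Tfrc, the transferrin receptor (0.50), and Lrp1, which takes up heme-hemopexin and macroglobulin complexes (0.44). Another Tfrc probe set went the other way, at -0.58 and not called. Another Lrp1 probe set was at -0.07 and not called. The call of Lrp1 was lost by the rank product and when arrays were centred on ribosomal protein genes.

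The proteins that bind hemoglobin, heme, metal and drugs in plasma were called in no comparison. Hp encodes haptoglobin, which captures free hemoglobin, and its signal was 13.95 and 13.95 in BBDR.+/+, 14.04 and 14.07 in pre-hyperglycemia and 14.10 and 14.05 in post-hyperglycemia arrays. Both lyp/lyp groups lay above BBDR.+/+, by 0.10 and 0.12 on the log2 scale. The 95% interval of the post-hyperglycemia difference was -0.10 to 0.34. Hpx encodes hemopexin, the carrier of free heme, and its 6 values ran from 13.69 to 13.85 with differences of 0.08, 0.07 and 0.00.

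Orm1, which encodes the drug-binding alpha-1-acid glycoprotein, lay higher in each group in turn, by differences that limma did not call. Its signal was 13.05 and 13.05 in BBDR.+/+, 13.19 and 13.22 in pre-hyperglycemia and 13.33 and 13.38 in post-hyperglycemia arrays, with no overlap between groups. The log2 difference between post-hyperglycemia and BBDR.+/+ liver was 0.30 (95% interval 0.08 to 0.52, limma adjusted p = 0.113), and with the variance following the signal it was called (adjusted p = 0.00532).

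Cp encodes ceruloplasmin, the copper-carrying plasma ferroxidase, and its 3 probe sets did not move alike. The first was at 13.07 and 13.02 in BBDR.+/+, 13.13 and 13.10 in pre-hyperglycemia and 13.02 and 13.03 in post-hyperglycemia arrays. The second was at 9.09 and 9.15, 9.03 and 9.03, and 8.72 and 9.04. The third was at 13.27 and 13.16, 13.38 and 13.35, and 13.41 and 13.46. Between post-hyperglycemia and BBDR.+/+ liver they gave log2 differences of -0.02, -0.24 and 0.23, none of them called, and with the variance following the signal the third was called (adjusted p = 0.0362). Over the 9 probe sets of 7 genes that limma called in no comparison, the standard error of a difference was at most 0.12. Signals of these 9 ran from 8.72 to 14.10, beside a highest signal of 14.62 on the arrays. Compression of differences near that end was not tested.

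Other genes of the response were taken from 5 further lists. Among 28 probe sets of 24 other positive acute phase genes, limma called 4 in post-hyperglycemia and 3 in pre-hyperglycemia against BBDR.+/+ liver, all of them higher, and 2 in post- against pre-hyperglycemia liver, both lower. The shares called were 14.3%, 10.7% and 7.14%, beside 5.15%, 0.718% and 2.18% of all probe sets. For every list, the share over all probe sets includes dim ones, where calls are rarer. With only the top 60% by mean in the fit, 1881 were called in post-hyperglycemia against BBDR.+/+ liver, beside 1599 of all 31042. The median log2 differences of these 28 were 0.05, 0.05 and -0.03. Lbp, which encodes the lipopolysaccharide-binding protein, was at 10.31 and 10.43 in BBDR.+/+, 11.17 and 11.34 in pre-hyperglycemia and 11.03 and 11.15 in post-hyperglycemia arrays. Both lyp/lyp groups were above BBDR.+/+, by 0.88 and 0.72 (limma adjusted p = 0.0058 and 0.00483). Fgl1, a fibrinogen-like protein of hepatocytes, rose in post-hyperglycemia liver by 0.92 (limma adjusted p = 0.000904), and both its call and that of Lbp in this comparison held in all 6 fits that left out 1 array. Vnn1, which makes pantetheinase, was high in the same group as A2m, with means of 6.63 in BBDR.+/+, 7.70 in pre-hyperglycemia and 7.15 in post-hyperglycemia arrays. It was called in all 3 comparisons, at 1.07 for pre-hyperglycemia against BBDR.+/+ liver (adjusted p = 0.00406), -0.55 for post- against pre-hyperglycemia and 0.52 for post-hyperglycemia against BBDR.+/+ liver. Cd14, the lipopolysaccharide co-receptor, fell between pre- and post-hyperglycemia liver by 0.99 on the log2 scale (limma adjusted p = 0.00679). The fourth gene higher in post-hyperglycemia than in BBDR.+/+ liver was Fga, a fibrinogen chain, through 1 probe set (0.41), whereas its other probe set gave -0.09 and was not called. The other calls of these genes were each lost when at least 1 of the arrays was left out.

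Of 22 probe sets of 19 negative acute phase genes, limma called 1 in each lyp/lyp group against BBDR.+/+ liver, and it was higher. The share called was 4.55% in each, beside 5.15% of all probe sets for post-hyperglycemia and 0.718% for pre-hyperglycemia. Between both lyp/lyp groups 0 of the 22 were called by limma or the rank product, with 3 at a p under 0.05 before adjustment, all lower. Serpina7, thyroxine-binding globulin, was higher in pre-hyperglycemia (1.45) and post-hyperglycemia (0.99) than in BBDR.+/+ liver (limma adjusted p = 0.00317 and 0.00538), with 7.54 and 7.51 in BBDR.+/+, 9.06 and 8.88 in pre-hyperglycemia and 8.25 and 8.78 in post-hyperglycemia arrays. The medians of this list were 0.00, -0.02 and 0.02 for post-hyperglycemia against BBDR.+/+, post- against pre-hyperglycemia and pre-hyperglycemia against BBDR.+/+ liver. Among 14 probe sets of 13 relatives of the macroglobulins, serpins and inter-alpha-inhibitors, 2 were higher in post-hyperglycemia than in BBDR.+/+ liver. They were C5, the complement component and macroglobulin relative, at 0.77, and the Lrp1 probe set already given with the iron genes. C5 was the 1 probe set of this list called in pre-hyperglycemia against BBDR.+/+ liver (0.57). The shares called were 14.3% and 7.14%, beside 5.15% and 0.718% of all probe sets. Between both lyp/lyp groups 0 were called by limma or the rank product, with 1 at a p under 0.05 before adjustment. The call of C5 in pre-hyperglycemia liver was lost without any 1 of the 4 arrays compared, that of Serpina7 there without either BBDR.+/+ array, that of Serpina7 in post-hyperglycemia liver without BBDR.+/+ replicate 2, and that of C5 in post-hyperglycemia liver held in all 6 such fits.

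Of 28 probe sets of 19 inducing cytokines and receptors, 2 were higher and 3 lower in post-hyperglycemia than in BBDR.+/+ liver, 1 higher and 3 lower in post- than in pre-hyperglycemia liver, and 2 in pre-hyperglycemia against BBDR.+/+ liver, both lower. The shares called were 17.9%, 14.3% and 7.14%, beside 5.15%, 2.18% and 0.718% of all probe sets. Il1r1, an interleukin-1 receptor, was higher through 1 probe set (0.62, limma adjusted p = 0.00942) and Tnfrsf1b, a tumor necrosis factor receptor, at 0.49. Il1a, which encodes interleukin-1 alpha, has a pair of probe sets, and both were lower in post- than in pre-hyperglycemia liver (-1.21 and -0.51, limma adjusted p = 0.00127 and 0.0396). The call of the second was lost by the rank product. With 1 array left out it ranged from -0.6 to -0.43, without a call. Against BBDR.+/+ liver the first was lower (-1.02, adjusted p = 0.000931) and the other, at -0.19, was not called. Il6st, the gp130 receptor, has 4 probe sets, of which 1 was lower (-0.72) and 3 were not called in post-hyperglycemia against BBDR.+/+ liver. With the 3' minus 5' covariate this lower Il6st probe set turned to 0.30, without a call. Another of the 4 was called lower in post- than in pre-hyperglycemia liver (-0.55, limma adjusted p = 0.0459). That call was lost by the rank product and with the covariate. Lifr, the leukemia inhibitory factor receptor, was lower in pre-hyperglycemia than in BBDR.+/+ liver through both probe sets (-0.83 and -0.84). In post-hyperglycemia liver these parted: the first was lower than in BBDR.+/+ liver (-0.71, limma adjusted p = 0.00361), and the other was higher than in pre-hyperglycemia liver (0.80, adjusted p = 0.00442) and at -0.05 to BBDR.+/+ liver, which was not called. Markers of cells that also make or sense these cytokines differed between groups: 7 Kupffer cell and macrophage markers averaged 9.99 to 10.02 in BBDR.+/+, 10.28 to 10.30 in pre-hyperglycemia and 10.33 to 10.40 in post-hyperglycemia arrays, with 4 of 7 called higher in post-hyperglycemia than in BBDR.+/+ liver. For 5 neutrophil and monocyte markers the averages were 4.73 to 4.75, 5.23 to 5.43 and 5.32 to 5.33, with 2 of 5 called higher in each lyp/lyp group than in BBDR.+/+ liver. Those called were S100a8 and S100a9 (1.29 and 1.46 in post-hyperglycemia liver). Csf3r, Cxcr2 and Itgam were at 0.23, 0.08 and -0.13 in that comparison and were not called. The part of these cells in these results was not tested.

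Of 43 probe sets of 25 signal transducers and transcription factors, 4 were higher and 6 lower in post-hyperglycemia than in BBDR.+/+ liver, 6 were lower in post- than in pre-hyperglycemia liver, and 2 were higher in pre-hyperglycemia than in BBDR.+/+ liver. The shares called were 23.3%, 14% and 4.65%, beside 5.15%, 2.18% and 0.718% of all probe sets. Those higher in the first comparison were single probe sets of Nfkbiz (0.75), Stat3 (0.60), Bcl3 (0.59) and Cebpd (0.55), transcription factors or cofactors of the interleukin-1 and interleukin-6 routes, while the other probe sets of these genes were not called and another Stat3 probe set was at -0.31. Lower were Jak1, a kinase bound to gp130 (-1.27 through 1 probe set and -0.22 through another that was not called), Jak2 (-0.58), 1 probe set each of Irak1 (-0.66) and Hnf4a (-0.64), and both probe sets of Onecut1, a liver transcription factor (-0.63 and -1.25). The other Irak1 probe set was at -0.03 and the other Hnf4a probe sets at -0.19 and -0.16, none of them called. Against pre-hyperglycemia liver the Hnf4a probe sets gave -1.08, -0.59 and 0.23, and the last was not called. With the covariate the Irak1 and Hnf4a differences of -0.66 and -0.64 turned to 0.39 and 0.51, without a call. Socs2, a feedback inhibitor of growth hormone signaling, was high in pre-hyperglycemia liver, as A2m was, with 7.07 and 7.30 in BBDR.+/+, 8.06 and 8.39 in pre-hyperglycemia and 6.84 and 7.25 in post-hyperglycemia arrays. It was higher by 1.04 in pre-hyperglycemia than in BBDR.+/+ liver and fell by 1.18 on the log2 scale between both lyp/lyp groups (limma adjusted p = 0.0168 and 0.00605). Over all these lists together, 6 of 28 probe sets called in post-hyperglycemia against BBDR.+/+, 5 of 13 called in post- against pre-hyperglycemia and 0 of 9 called in pre-hyperglycemia against BBDR.+/+ liver kept their call in all 6 fits that left out 1 array. These were probe sets of Fgl1, Lbp, C5, Il1a, Jak1 and Onecut1 in the first comparison and of Il1a, Lifr, Hnf4a, Socs2 and Jak1 in the second. With the 3' minus 5' covariate the counts kept were 0, 0 and 6.

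**Figure D4:**
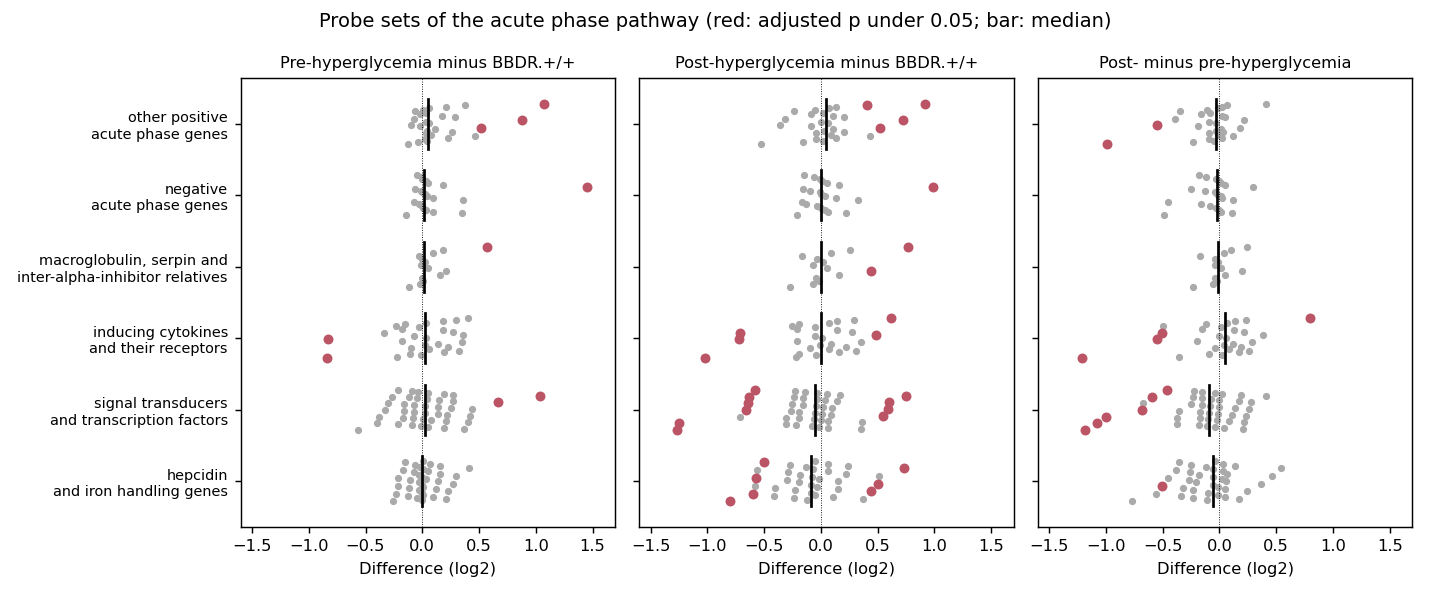
Log2 differences between groups (x axis) of each probe set of 6 lists of acute phase pathway genes (rows), with called probe sets in red and the list's median as a black bar. The medians lie between -0.09 and 0.05, and the red points lie on both sides of 0 in the cytokine, transducer and iron lists of the middle panel.

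For reference, the chemokine Cxcl1 was at 6.61 and 6.68 in BBDR.+/+, 7.97 and 8.25 in pre-hyperglycemia and 9.11 and 9.52 in post-hyperglycemia arrays, and it was called in every comparison (log2 differences 1.46 for pre-hyperglycemia and 2.67 for post-hyperglycemia against BBDR.+/+ liver, and 1.21 between both lyp/lyp groups). None of the 10 acute phase genes followed its course by a comparable amount: Orm1 and the third Cp probe set, whose groups also rose in this order without overlap, differed by 0.30 and 0.23 between post-hyperglycemia and BBDR.+/+ liver, where Cxcl1 differed by 2.67. Both probe sets lay far above Cxcl1, at 13.05 to 13.46, where the highest signal on the arrays was 14.62. How far differences are compressed there was not tested. Gimap5, the gene with the lyp mutation, was at 6.43 and 6.45 in BBDR.+/+, 5.52 and 5.85 in pre-hyperglycemia and 5.71 and 5.91 in post-hyperglycemia arrays, lower in both lyp/lyp groups.

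The genes whose course over the 6 arrays was most like that of a called member were listed by Pearson's r, as a description, among probe sets with 1 symbol, a mean of at least 6 and an SD of at least 0.5 times that of the member. For Mug1 these were Nedd4, a ubiquitin ligase (r = 0.997), and Api5 and Ceacam1 (both 0.995). Nedd4 was at 8.46 and 8.79, 7.92 and 8.05, then 6.21 and 6.66 in BBDR.+/+, pre- and post-hyperglycemia arrays. Of the 82 probe sets eligible for Mug1, 57 had an r over 0.95, so this likeness was common among genes with as wide a spread. For A2m they were Midn and Pdzrn3 (both 0.995) and Spc25 (0.994), with 46 of 2923 over 0.95. For Crp they were Lsm14a (0.999), and Srsf2 (0.995) and Ddx17 (0.994), which act in RNA splicing and unwinding, with 98 of 4996 over 0.95. The 6 arrays hold 3 groups, so that any gene with like group means has a high r.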

How the data were processed

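Liver RNA of 6 samples was measured on Affymetrix RG230 2.0 arrays. Per the labels the RNA was amplified with a 3' IVT Express kit, while the methods name a two-cycle cDNA kit. The deposited values are log2 signals, summarized per probe set with Affymetrix Expression Console per the submitters' processing notes and normalized by the authors in Partek. Neither the summary method nor the background correction is stated in the sources used here. The values were used as deposited, with no further scaling. Of 31099 probe sets, 57 controls were set aside and 31042 tested. GEO's probe-to-gene table gave 1 symbol to 20826, several to 436 and none to 9780.

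limma 3.58.1 in R 4.3.3 fitted 1 mean per group to all 6 arrays (3 residual and 7.7 prior degrees of freedom), with no covariate. Alternatives were 3 rescalings, a filter on dim probe sets, the 4 arrays of a comparison alone, a variance trend, the methods' t-test, the rank product, gene means, a replicate block, the 3' minus 5' covariate and leaving out each array. The number of arrays, 2 per group, limits the precision. The fits were tested on simulated data. The members and gene lists were chosen with earlier results of these data known. Of each list, genes with a called probe set are named, and not all such probe sets nor the further genes by smallest p are printed. Promoters were the 250 bases before each start in RefSeq GRCr8, found for 8 of 10 members and not for A2m and Hp. No coordinates of probe sets were used.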

Additional observations from a re-analysis of the deposited data

Results flagged for a closer look

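A signal outside the main measurement stood above its level in the control group. The 3' minus 5' log2 difference of the beta-actin control probe sets averaged 2.07 in the post-hyperglycemia arrays, 1.24 in BBDR.+/+ and 1.42 in pre-hyperglycemia arrays. For GAPDH the averages were 1.35, 0.58 and 0.61. The values of the post-hyperglycemia arrays, 2.11 and 2.04 for beta-actin and 1.37 and 1.33 for GAPDH, did not overlap those of the other 4 arrays. Mug1 and Crp were lower in the same arrays, and with this difference as a covariate their log2 differences to BBDR.+/+ liver went from -2.38 to -0.95 and from -0.57 to 0.59. The part of RNA length in these values was not tested further.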

How the results depend on the processing

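Of 603 values of single member probe sets under 17 alternatives, 578 kept their side of the threshold, 5 gained a call and 19 lost one. In 1 further case a called difference turned: Crp with the 3' minus 5' covariate, at 0.59. A change of sign in a difference that was never called counts among the 578. With the covariate the third Cp probe set went from 0.23 to -0.04 and Hamp from -0.15 to 0.06 against BBDR.+/+ liver. The covariate also turned Il6st (0.30 against BBDR.+/+ and, through another probe set, 0.01 against pre-hyperglycemia liver), Hnf4a (0.51 and 0.07), Irak1 (0.39), Smad4 (0.50) and Smad1 (0.84). The member counts of 2 (post-hyperglycemia against BBDR.+/+), 2 (post- against pre-hyperglycemia) and 1 (pre-hyperglycemia against BBDR.+/+) became 4, 3 and 2 with the variance trend, 0, 0 and 0 with the methods' t-test after Benjamini-Hochberg adjustment, 0, 0 and 1 with the covariate, and 1, 1 and 2 by the rank product, and ranged from 1 to 2, 1 to 2 and 0 to 1 when 1 array was left out. The counts over all probe sets, 1599, 677 and 223, became 1225 and 496 in the last 2 comparisons with the trend, 0, 0 and 1 by the methods' t-test (3362, 2790 and 2784 at an unadjusted p under 0.05), 0, 0 and 115 with the covariate (2171 and 2186 unadjusted in the first 2), 753 and 328 genes in the first 2 as gene means, 754 and 401 in the first and last by the rank product, and 413 in the second from its 4 arrays. They ranged from 291 to 1567, 112 to 537 and 12 to 212 when 1 array was left out. A fit with the replicate block gave 1191 and 408 in the last 2 comparisons and changed no member count. Deviations of same-numbered arrays correlated at 0.261, 0.142 and 0.11, but with 2 numbers per group and nothing in the labels to tie them they were not taken as pairs. The main fit treats the arrays as independent, which would not hold if both lyp/lyp groups came from the same rats. Centring on ribosomal protein genes moved the split of calls to 290 higher and 328 lower (46.9% higher, from 32.9%) in the second comparison and to 85 and 91 (48.3%, from 64.6%) in the last, and under the 3 rescalings no member difference moved by more than 0.05. The rank product here used 100 permutations and was chosen after seeing the data, since the planned gamma approximation made too many false calls in simulated data and was not run. A lone array left in a group was assumed to vary like the other groups, and the covariate lies so close to the post-hyperglycemia group that both cannot be told apart with 6 arrays.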
